A study of Mus musculus with 18 samples.

Results

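The 57 genes described here lie on mouse chromosome 3 between 90 and 120 Mb (GRCm38). The interval was chosen by the shift of its transcripts between HetKO and WT cells, and the members were listed within it with the values of all 3 lines known. All 57 were in the deposited table of 55450 genes and passed a filter of a mean of at least 1 TPM (a transcript level corrected for length and scaled to a fixed total per sample), as did 173 other genes of the interval. The working label of the list, chromosome 3 genes raised in HetKO, held for most members but not for the first 9 along the chromosome, which stood at the WT level in HetKO.

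The libraries were stranded mRNA-seq of P19, an embryonic carcinoma cell line of the mouse, in 3 genotypes with 6 samples each. WT cells were Dicer (+/+). HetKO cells were Dicer (+/-), with a frameshift truncation made by CRISPR on 1 allele, and HM cells were Dicer (HM/-), made by editing the hotspot change E1797G of the RNase IIIb domain into the remaining allele of HetKO. HetKO and HM therefore share the truncated allele, and each edited genotype is a clonal line, so that differences between clones and between genotypes cannot be told apart.

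Genes that lie side by side on a mammalian chromosome mostly have promoters of their own and unrelated functions. The members are mainly genes that every dividing cell uses. They include subunits of the proteasome, which degrades ubiquitin-tagged proteins, splicing factors, chromatin regulators, small GTPases such as Nras, and proteins of membrane traffic and of mitochondria.

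The marker genes of embryonic carcinoma cells were expressed, but unevenly between lines. The summed level of 6 pluripotency genes was 2630 to 2880 TPM in WT, 2450 to 2980 TPM in HetKO and 2830 to 3100 TPM in HM, most of it Pou5f1. Nanog had means of 46.9 ± 15.6 TPM in WT, 86.3 ± 28.8 TPM in HetKO and 18.8 ± 5.03 TPM in HM, and Sall4 of 24.5 ± 2.75, 46.7 ± 17.0 and 8.85 ± 6.17 TPM, with 0.63 TPM in the lowest HM sample (SD, n = 6). Both means were highest in HetKO and lowest in HM. Sox2, Lin28a and Utf1 instead had their highest means in HM. Means in WT, HetKO and HM were 98.6, 114 and 157 TPM for Sox2 and 282, 260 and 343 TPM for Lin28a. For Utf1 they were 220, 148 and 381 TPM, and for Pou5f1 2090, 2090 and 2040 TPM. The part of these genes in the members' values was not tested. The primitive endoderm, fibroblast and muscle lists each summed to at most 9.96 TPM in any sample, and the neural list, mostly Tubb3, to between 23.5 and 55.4 TPM. Dicer1 had a mean of 52.3 ± 2.09 TPM in WT, 48.0 ± 4.10 TPM in HetKO and 40.3 ± 3.18 TPM in HM (SD, n = 6). In HetKO and HM the samples fell into 3 pairs that were more alike than the rest. Over 683 abundant genes, the robust SD of the log2 difference was 0.051 to 0.0696 within pairs and 0.164 to 0.358 between them in HetKO, and 0.0595 to 0.105 and 0.168 to 0.279 in HM. The 3 WT pairs were less distinct, with 0.0493 to 0.0746 within and 0.073 to 0.205 between them. The labels do not say that samples came from separate cultures, so p-values measure the spread between these samples, which may be technical.

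Along the chromosome, the members changed from the WT level to a raised level in HetKO between Psmd4, a ubiquitin receptor of the proteasome, and Vps72, a subunit of a complex that deposits the histone variant H2A.Z. This boundary was chosen after the values were seen. Promoter windows of some members are shown, picked with the values known, by their place along the chromosome or by their HetKO difference. RefSeq windows (GRCm38.p6, 250 bases before to 50 bases after a start) were matched by symbol for 48 of the 57 members. Snx27, Vps72, Sf3b4, Man1a2, Trim33, Rap1a, Sort1, Clcc1 and Dbt had no entry. Psmd4 stands for the unraised side and Cdc42se1 is the first raised member with an entry. Arnt lies inside the raised stretch but had a WT-like mean, and Prmt6 had the largest HetKO difference. Capitals mark exact matches, on either strand, to 5 short motifs. The TATA box was searched as TATAAA. The box bound by the factor NF-Y was searched as CCAAT and the GC box bound by Sp1 as GGGCGG. The core site of ETS family factors was searched as CCGGAAG and that of the factor NRF1 as CGCATGCG. No 2 matches overlapped in these windows.
Psmd4, chr3:95042565-95042864, minus strand: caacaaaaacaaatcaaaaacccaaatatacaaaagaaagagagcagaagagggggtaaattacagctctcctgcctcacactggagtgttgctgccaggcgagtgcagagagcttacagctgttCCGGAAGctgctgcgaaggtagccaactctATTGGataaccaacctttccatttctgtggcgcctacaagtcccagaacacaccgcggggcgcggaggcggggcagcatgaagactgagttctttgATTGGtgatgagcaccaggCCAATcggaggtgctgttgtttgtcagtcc
Cdc42se1, chr3:95228693-95228992, plus strand: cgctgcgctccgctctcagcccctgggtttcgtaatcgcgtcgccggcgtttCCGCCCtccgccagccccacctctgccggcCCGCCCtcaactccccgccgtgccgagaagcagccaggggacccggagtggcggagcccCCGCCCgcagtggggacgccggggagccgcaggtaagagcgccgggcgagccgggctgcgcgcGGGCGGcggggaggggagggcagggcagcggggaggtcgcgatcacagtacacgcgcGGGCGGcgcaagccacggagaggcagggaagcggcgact
Arnt, chr3:95434140-95434439, plus strand: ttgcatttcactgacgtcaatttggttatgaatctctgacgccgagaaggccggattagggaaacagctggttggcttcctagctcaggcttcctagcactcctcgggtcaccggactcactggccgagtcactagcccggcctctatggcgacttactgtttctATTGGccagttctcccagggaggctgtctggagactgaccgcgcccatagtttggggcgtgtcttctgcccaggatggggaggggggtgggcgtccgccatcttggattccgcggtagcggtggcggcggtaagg
Prmt6, chr3:110250950-110251249, minus strand: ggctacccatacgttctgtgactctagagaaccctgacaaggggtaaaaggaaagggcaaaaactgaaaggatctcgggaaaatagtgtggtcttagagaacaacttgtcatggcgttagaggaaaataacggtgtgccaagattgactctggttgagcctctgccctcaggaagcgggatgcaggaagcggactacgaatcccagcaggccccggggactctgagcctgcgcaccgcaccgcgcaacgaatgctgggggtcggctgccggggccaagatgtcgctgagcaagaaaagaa
The Psmd4 window held 3 CCAAT boxes and 1 ETS core, the printed Cdc42se1 window 5 GC boxes, the Arnt window 1 CCAAT box and the Prmt6 window none of the 5 motifs. Cdc42se1 has a further window, from 95228174 to 95228473, with 2 GC boxes, and the printed one is that which holds the gene's GENCODE start at 95228732. The 48 matched members had 60 windows. A CCAAT box was in 38.3% of them, against 38.5% of the windows of tested genes and 37.4% of all windows. A GC box was in 60.0% of the members' windows, 63.9% of those of tested genes and 35.7% of all windows. The ETS core was in 16.7%, 17.5% and 8.86% of these sets, the TATA box in 6.67%, 6.77% and 13.6%, and the NRF1 core in 3.33%, 3.90% and 1.87%. The shares on either side of the boundary were further apart, with only 9 windows before it and 51 beyond it. A CCAAT box was in 66.7% and 33.3% of them, a GC box in 44.4% and 62.7%, the TATA box in 22.2% and 3.92%, the ETS core in 11.1% and 17.6% and the NRF1 core in 11.1% and 1.96%, and these differences were not tested.

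HetKO cells held more transcript of most members. The median HetKO minus WT difference of mean log2(TPM + 1) was 0.59 over the 57 members, with quartiles of 0.34 and 0.75, and the median ratio of mean TPM was 1.53. The mean was higher in HetKO for 50 members and lower for 7. In 38 of 57 every HetKO sample lay above every WT sample, which held for 3.07% of the 13999 genes tested in these lines, and 0 members had all HetKO samples below WT (5.14% of all genes). Since the interval was picked for this difference, the values are a description and were not tested. The median difference over tested genes of other chromosomes was -0.04. In bulk RNA, a larger share in each cell and more cells that express a gene cannot be told apart.

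The first 9 members did not share the raised level. Gatad2b, Ints3, Ilf2, Chtop, Snx27, Pogz, Psmb4, Pi4kb and Psmd4 had a median HetKO minus WT difference of -0.01, with 4 means higher and 5 lower, and 0 of 9 had all HetKO samples above WT. The other 48, from Vps72 onward, had a median difference of 0.67 and a median TPM ratio of 1.62. In 38 of these 48 the HetKO and WT samples did not overlap, and for 40 the difference lay between 0.4 and 1. The ratio varied little with expression, at a median of 1.72 in the 16 members with the lowest WT level (4.07 to 22.5 TPM), 1.55 in the middle 16 and 1.66 in the highest 16 (54.0 to 241 TPM).

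**Figure D1:**
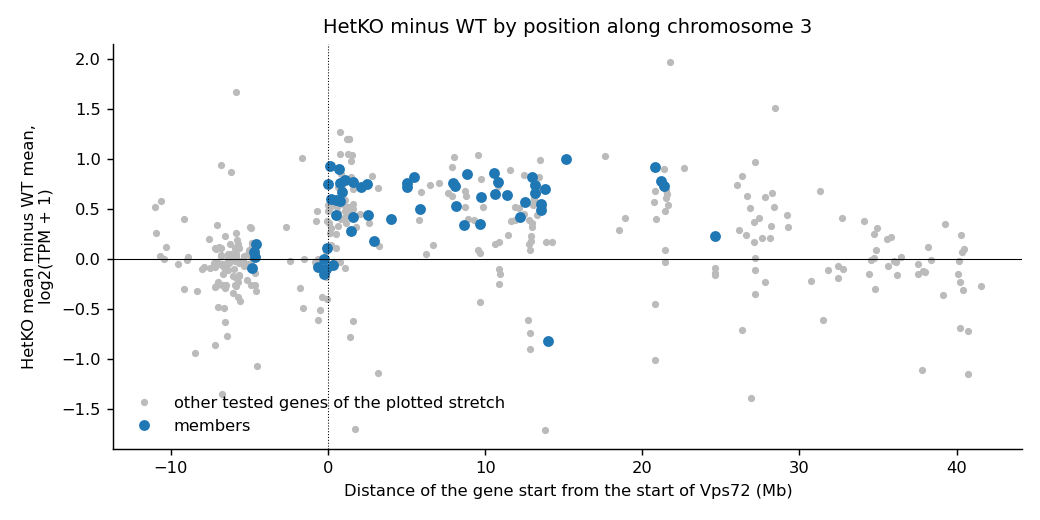
HetKO mean minus WT mean on the log2(TPM + 1) scale (y axis) against the distance of each gene's start from that of Vps72 in Mb (x axis), with the 57 members as blue points and the other genes past the filter as grey points. The 9 members left of the dotted line lie near 0, while 40 of the 48 on or right of it lie between 0.4 and 1.

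Psmd4 and Vps72 show the boundary sample by sample. Psmd4 lies on the minus strand from 95032694 to 95042614. It was at 231, 209, 209.8, 224, 205 and 208 TPM in WT replicates 1 to 6 and at 211, 261, 225, 224, 245 and 224 TPM in HetKO replicates 1 to 6. The samples of both lines overlapped, with means of 214 ± 10.6 and 232 ± 18.1 TPM (SD, n = 6). Vps72 lies on the plus strand from 95111022 to 95123051. It was at 60.6, 62.1, 60.9, 62.5, 60.0 and 54.7 TPM in WT and at 98.4, 111, 100.4, 94.5, 104 and 103 TPM in HetKO. All HetKO samples were above all WT samples, with means of 60.1 ± 2.81 and 102 ± 5.51 TPM (SD, n = 6) and a ratio of 1.70. Between them lies Pip5k1a, a lipid kinase gene that is no member and was singled out after its values were seen. Its means were 30.3 ± 3.03 TPM in WT and 39.8 ± 5.79 TPM in HetKO, and its samples overlapped.

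The limits of the interval did not mark the limits of the raised stretch. Just before 90 Mb, Ube2q1, Atp8b2 and Hax1 had HetKO minus WT differences of -0.08, -0.21 and -0.06, and just after it Ubap2l, 4933434E20Rik and Tpm3 had 0.05, -0.08 and 0.09. Genes on either side of 90 Mb were thus alike. Before 120 Mb, Frrs1 and Snx7, which are no members, had differences of 1.96 and 0.90, and just after it Rwdd3, Alg14 and Cnn3 had 0.74, 0.29 and 0.82. Genes raised in HetKO thus also lay past 120 Mb, though the raised level was not unbroken up to there. Among all 180 tested genes from Vps72 to 117.5 Mb the median was 0.52, with HetKO above WT without overlap in 94 (52.2%). It was 0.33 for the 25 genes from 120 to 125 Mb, -0.05 for the 32 genes from 125 to 135 Mb and -0.02 for the 41 genes from 90 to 95 Mb. The 5 genes between 117.5 and 120 Mb, Ptbp2 among them, had a median of -0.10. These stretches were set after the values were seen.

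The 173 other tested genes of the interval had smaller differences on the whole. Their median difference was 0.38, and 59 (34.1%) had all HetKO samples above WT, while 132 (76.3%) had a higher mean in HetKO. Their median WT level was 10.8 TPM against 38.2 TPM for the members. The list was drawn up with values known, so no test sets the members against them.

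The counts by role below describe members listed with the HetKO difference known, and they were not tested. Beyond the boundary, 38 of 48 members had every HetKO sample above every WT sample. So did 52.2% of all 180 tested genes from Vps72 to 117.5 Mb, and 3.07% of all genes tested in these lines. The proteasome members lay on both sides of the boundary. Psma5, a subunit of the catalytic core (plus strand from 108256926 to 108279974), was at 229.9 to 258 TPM in WT and 356 to 462 TPM in HetKO, a ratio of 1.67 with no overlap. Psmb4, another core subunit among the first 9 members, was at 303 to 347 TPM in WT and 297 to 339 TPM in HetKO, a ratio of 0.996. Psmd4, given above, had a ratio of 1.08. Only the subunit encoded beyond the boundary was raised without overlap.

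Of 9 members that act in splicing or mRNA export, 6 had all HetKO samples above WT. Prpf3, a protein of the U4/U6 small nuclear ribonucleoprotein, had means of 45.9 ± 3.65 TPM in WT and 87.8 ± 20.1 TPM in HetKO (SD, n = 6), a ratio of 1.92. Ddx20, a helicase of the SMN complex that assembles these particles, was at 27.9 ± 2.44 and 52.6 ± 13.4 TPM, a ratio of 1.89. Bcas2, of the PRP19 complex, had the highest WT level of the group, at 132 ± 6.49 TPM against 221 ± 25.9 TPM in HetKO. Sf3b4, of the SF3b complex that recognizes the branch site, and Wdr77, a partner of the arginine methyltransferase Prmt5, had ratios of 1.76 and 1.78. The 3 without separation were Chtop, an export factor before the boundary, Ptbp2, a splicing regulator and the last member, and Rbm15, with differences of 0.15, 0.22 and 0.42.

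Transcription and chromatin held 15 members, 9 of them with HetKO above WT without overlap. Prmt6, an arginine methyltransferase of histones (minus strand from 110246109 to 110250998), had the largest difference of all members, 1.00. It was at 15.0, 13.3, 12.2, 15.3, 13.9 and 13.3 TPM in WT and at 23.8, 44.5, 21.7, 25.4, 44.2 and 20.8 TPM in HetKO. HetKO replicates 2 and 5 were highest, and all 6 were above WT, with a ratio of means of 2.17. Setdb1, a histone H3 lysine methyltransferase, had means of 50.7 ± 4.45 and 77.4 ± 10.5 TPM (SD, n = 6), a ratio of 1.52. Phtf1, named as a putative homeodomain transcription factor, had a ratio of 1.85. Ilf2, a regulator of transcription and RNA processing and the highest of the group in WT, lies before the boundary and had a ratio of 1.02. Gatad2b, Ints3 and Pogz lie there too, with differences of -0.09, 0.07 and -0.15.

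Arnt is the dimerization partner of the hypoxia-inducible factors and of the aryl hydrocarbon receptor (plus strand from 95434388 to 95497240). It was the member of this group beyond the boundary whose mean stayed at that of WT. It was at 117, 116, 134, 119, 106 and 141 TPM in WT and at 147, 70.4, 142, 142, 76.7 and 158 TPM in HetKO. HetKO replicates 2 and 5 lay below every WT sample and the other 4 HetKO samples lay above every WT sample. The mean log2 difference was -0.06. These 2 replicates were also the lowest of HetKO for Txnip, an inhibitor of thioredoxin and of glucose uptake, at 243, 111, 501, 218, 89.6 and 394 TPM against 106 to 259.5 TPM in WT, and for Rhoc, a small GTPase, at 73.5, 27.1, 54.0, 71.9, 34.3 and 54.9 TPM against 31.9 to 42.5 TPM. Further members beyond the boundary with these replicates lowest in HetKO included Pias3, Golph3l, Prkab2, Rbm15 and Notch2. Pias3 was at 27.3, 14.4, 27.3, 24.1, 14.5 and 25.5 TPM in HetKO against 14.5 to 17.3 TPM in WT.

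Among small GTPases, G proteins and kinases, all encoded beyond the boundary, 10 of 11 members were separated from WT. Nras, a Ras GTPase of growth signalling (plus strand from 103058285 to 103067914), was at 75.1, 71.3, 72.3, 76.1, 77.0 and 67.9 TPM in WT and at 114, 169, 101, 108, 168 and 107 TPM in HetKO. All HetKO samples lay above WT, replicates 2 and 5 by most, and the ratio of means was 1.74. Gnai3, an inhibitory G protein subunit and the highest of the group in WT, had means of 93.3 ± 5.67 and 166 ± 26.6 TPM (SD, n = 6). Rap1a, a GTPase of cell adhesion, had a ratio of 1.59, Cdc42se1, a small effector of Cdc42, 1.98, and Cdc14a, a phosphatase, 1.88. Hipk1, a nuclear kinase, had the smallest difference of the group, 0.34, yet no overlap. Rhoc was the exception.

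Membrane traffic and the secretory pathway gave 6 of 10 members with separated samples. Snx27, a sorting nexin, and Pi4kb, a Golgi lipid kinase, lie before the boundary and had differences of -0.08 and -0.11. Notch2, a receptor of cell fate signalling, had means of 18.1 ± 0.904 and 20.8 ± 3.21 TPM (SD, n = 6) with overlap. Capza1, an actin capping subunit, had means of 60.3 ± 14.1 and 93.5 ± 24.9 TPM, and its WT samples alone ranged over 45.9 to 84.1 TPM.

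In the mitochondrial and metabolic group 4 of 7 members were separated. Dph5, an enzyme of diphthamide synthesis on elongation factor 2, had means of 18.6 ± 1.87 and 36.5 ± 8.86 TPM (SD, n = 6), and Dbt, a subunit of the branched-chain ketoacid dehydrogenase, 16.7 ± 1.15 and 28.9 ± 6.81 TPM. Slc25a24, a mitochondrial carrier, had the lower mean in HetKO. It was at 8.41, 2.38, 1.64, 7.84, 2.50 and 1.66 TPM in WT and at 2.09, 0.0400, 3.36, 2.08, 0.150 and 3.54 TPM in HetKO, where replicates 2 and 5 were the lowest, and its lines overlapped. Both members of the last group, Wdr3 and Gdap2, were separated, and Wdr3, which acts in ribosome biogenesis, had a ratio of 1.75. Wdr3 and Gdap2 overlap by 27 bases and Clcc1 and Gpsm2 by 203 bases on opposite strands. Whether the quantification used strand is not given in the sources used here.

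The samples of HetKO also differed in how far the 48 members were raised. The median over these members was 0.88 in HetKO replicate 2 and 0.85 in replicate 5, against 0.54 to 0.58 in the other 4. Over the 9 members before the boundary the medians were -0.05 to 0.13 in all 6 samples. Replicates 2 and 5 were 1 of the alike pairs of HetKO.

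**Figure D2:**
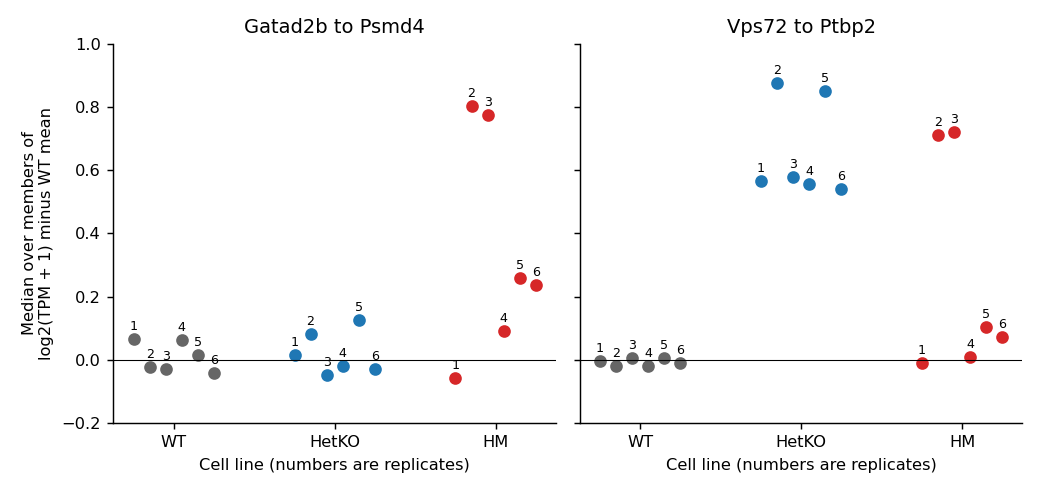
Median over members of log2(TPM + 1) minus the WT mean (y axis) in every sample of WT, HetKO and HM (x axis), for the 9 members before the boundary (left) and the 48 members beyond it (right). HetKO samples are near 0 on the left and at 0.54 to 0.88 on the right. HM replicates 2 and 3 are high in both panels. The other 4 HM samples are lower than these in both, with replicates 5 and 6 at 0.26 and 0.24 on the left.

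HM cells were not uniform over these genes. The median over the 57 members of log2(TPM + 1) minus the WT mean was 0.72 in HM replicate 2 and 0.75 in replicate 3, and -0.01, 0.02, 0.16 and 0.13 in replicates 1, 4, 5 and 6. In WT it was -0.04 to 0.01. Replicates 2 and 3 were the highest HM samples for 57 of 57 members, an order found for 21.5% of the 14043 genes tested in HM and WT and for 114 of the 173 other interval genes (65.9%). The members were listed with these values known and the replicates were set apart by the same measure, so no test was made. Replicates 2 and 3 were 1 of the alike pairs of HM.

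The raised stretch of HM replicates 2 and 3 was wider than that of HetKO. It took in the 9 members before the boundary, with medians of 0.80 and 0.78, against -0.06 to 0.26 in the other 4 HM samples. For the 48 members beyond it the medians were 0.71 and 0.72, against -0.01 to 0.10. Of the 78 tested genes from 87.5 to 90 Mb, 63 (80.8%) had replicates 2 and 3 on top of the HM samples, as did 26 of 32 (81.2%) from 125 to 135 Mb, where HetKO was at the WT level. The share was 20.1% of 219 genes below 85 Mb and 8.33% of 72 genes from 135 to 160 Mb. The number of DNA copies was not measured, and its part in either stretch was not tested.

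**Figure D3:**
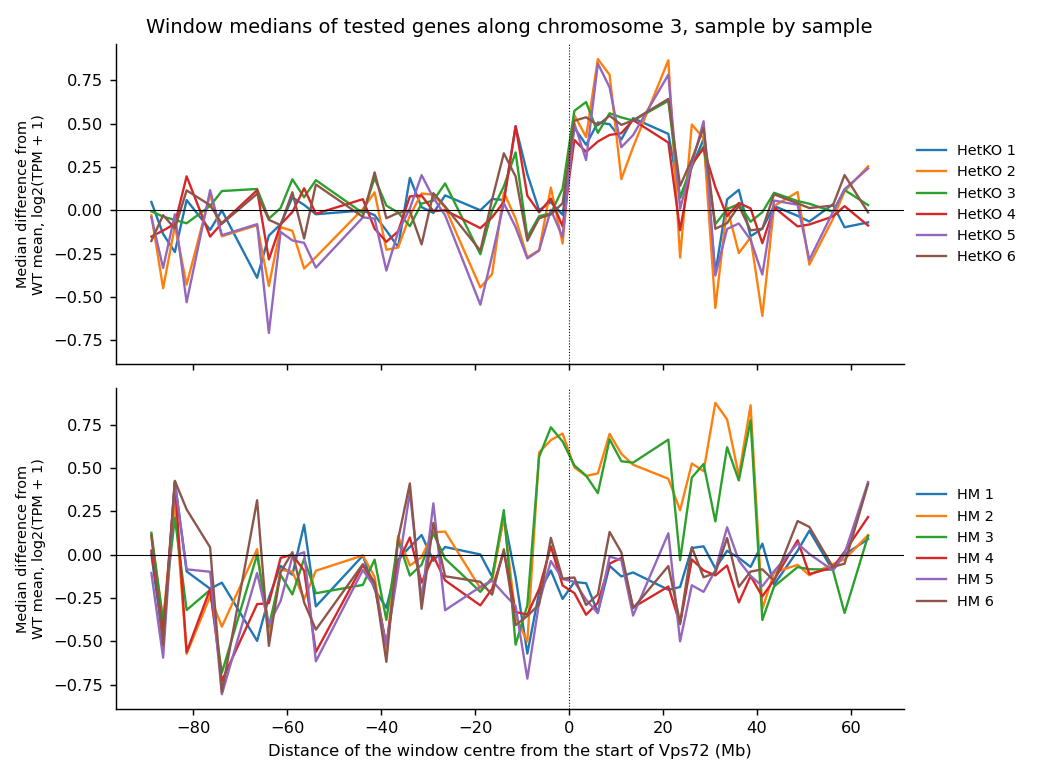
Median over tested genes of log2(TPM + 1) minus the WT mean (y axis) in windows of 2.5 Mb with at least 4 tested genes, by distance of the window centre from the start of Vps72 in Mb (x axis), for each HetKO sample (top) and each HM sample (bottom). All 6 HetKO lines step up at the dotted boundary. Around it, only the lines of HM replicates 2 and 3 are raised in HM, from left of the boundary to right of the HetKO stretch. Windows farther left also move. From 82.5 to 85 Mb, HetKO replicates 1, 3, 4 and 6 are at 0.195 to 0.486. From 10 to 12.5 Mb all HM lines are at 0.213 to 0.426.

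Ilf2 shows the pattern at a high level. It was at 130.2, 251, 249, 133, 161 and 168 TPM in HM replicates 1 to 6, against 148 to 169 TPM in WT and 151 to 186 TPM in HetKO. Replicates 2 and 3 were above every WT and HetKO sample and the other 4 were within or below the WT range. Vps72 was at 68.5, 85.2, 82.7, 56.9, 60.1 and 54.8 TPM in HM, so replicates 1, 2 and 3 exceeded every WT sample and none reached HetKO. Psmd4 was at 244, 386, 409, 259.9, 266 and 252 TPM in HM, where all 6 samples exceeded the highest WT sample, 231 TPM.

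**Figure D4:**
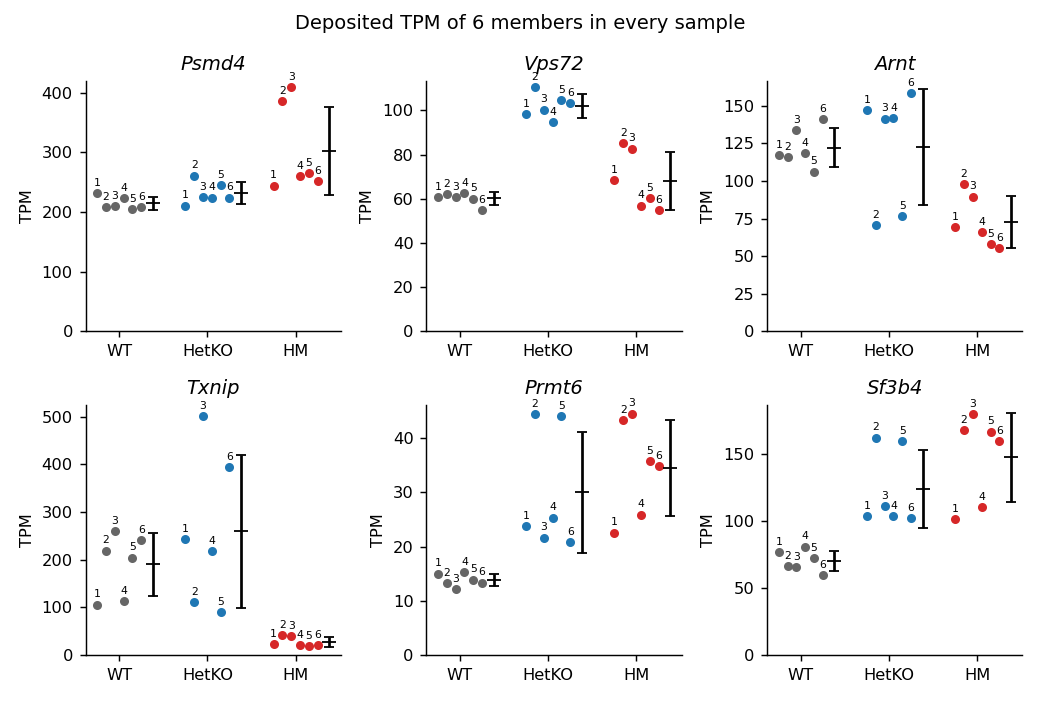
TPM (y axis) of 6 members in every sample of WT, HetKO and HM (x axis, numbers are replicates), with the mean and SD of each line as a bar (n = 6). HM replicates 2 and 3 are the highest HM samples in all 6 panels, Vps72, Prmt6 and Sf3b4 are raised in all HetKO samples, and Arnt and Txnip are lower in HM than in WT.

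HM was compared with WT to see whether the members differed in the line made from HetKO. The interval was picked on HetKO, but WT samples are shared with that choice, and the values of HM, replicates 2 and 3 among them, were known when the members were listed. The counts and fold changes of members in HM are therefore a description, given without p-values, and nothing is read from their distance to the share of all genes. Over all 6 HM samples the median difference of the members was 0.24, while the median of all genes was -0.09. By limma on log2(TPM + 1) with Benjamini-Hochberg adjustment over all genes, 22 members were higher in HM (19.4% of all 14043 genes) and 4 lower (32.0%), and 31 did not pass. Without HM replicates 2 and 3 the median was 0.02, and 19 members were higher (19.4% of 14053 genes) and 14 lower (33.6%). Of the calls with all samples, 19 higher and 4 lower were also made without these replicates, and Chtop, Slc25a24 and Dph5 were not. With means of alike pairs as replicates, 10 higher and 3 lower calls passed, and with samples centred on their median 35 higher and 4 lower. All HM samples lay above all WT samples for 15 members (10.6% of all genes) and below them for 4 (18.0%).

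The largest change was the fall of Txnip (plus strand from 96557957 to 96561883). It was at 106, 219, 259.5, 113, 204 and 241 TPM in WT and at 18.6 to 42.1 TPM in HM, highest in replicates 2 and 3. All HM samples were far below WT, with a limma log2 fold change of -2.75 (SE 0.27) and of -3.06 without replicates 2 and 3. Arnt was at 69.2, 98.0, 89.7, 66.2, 57.9 and 55.3 TPM in HM, below every WT sample, and its log2 fold change was -0.77 (SE 0.13). In both genes replicates 2 and 3 were the highest HM samples, as for the rest of the members. Pias3, a SUMO ligase, and Clcc1, an endoplasmic reticulum channel protein, were the other members lower in HM. They are named because the count of lower members was small, and their log2 fold changes were -0.69 and -0.63.

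Prmt6, Sf3b4 and Wdr77 came first in the limma fit among the members higher in HM. Prmt6 was at 22.6, 43.3, 44.6, 25.9, 35.8 and 34.9 TPM in HM, all above the highest WT sample of 15.3 TPM, with a limma log2 fold change of 1.22 (SE 0.15). Sf3b4 was at 101, 168, 179.6, 110.3, 167 and 159 TPM against 59.7 to 80.7 TPM in WT, a limma log2 fold change of 1.04 (SE 0.14). For both genes replicates 1 and 4 were the lowest HM samples, yet they too exceeded WT. Wdr77 had a log2 fold change of 0.99 and 0.83 without replicates 2 and 3. Prpf3, Trim33, a ubiquitin ligase and transcriptional regulator, and Hipk1 had log2 fold changes of 0.62, 0.48 and 0.55, and 0.48, 0.40 and 0.45 without replicates 2 and 3.

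**Figure D5:**
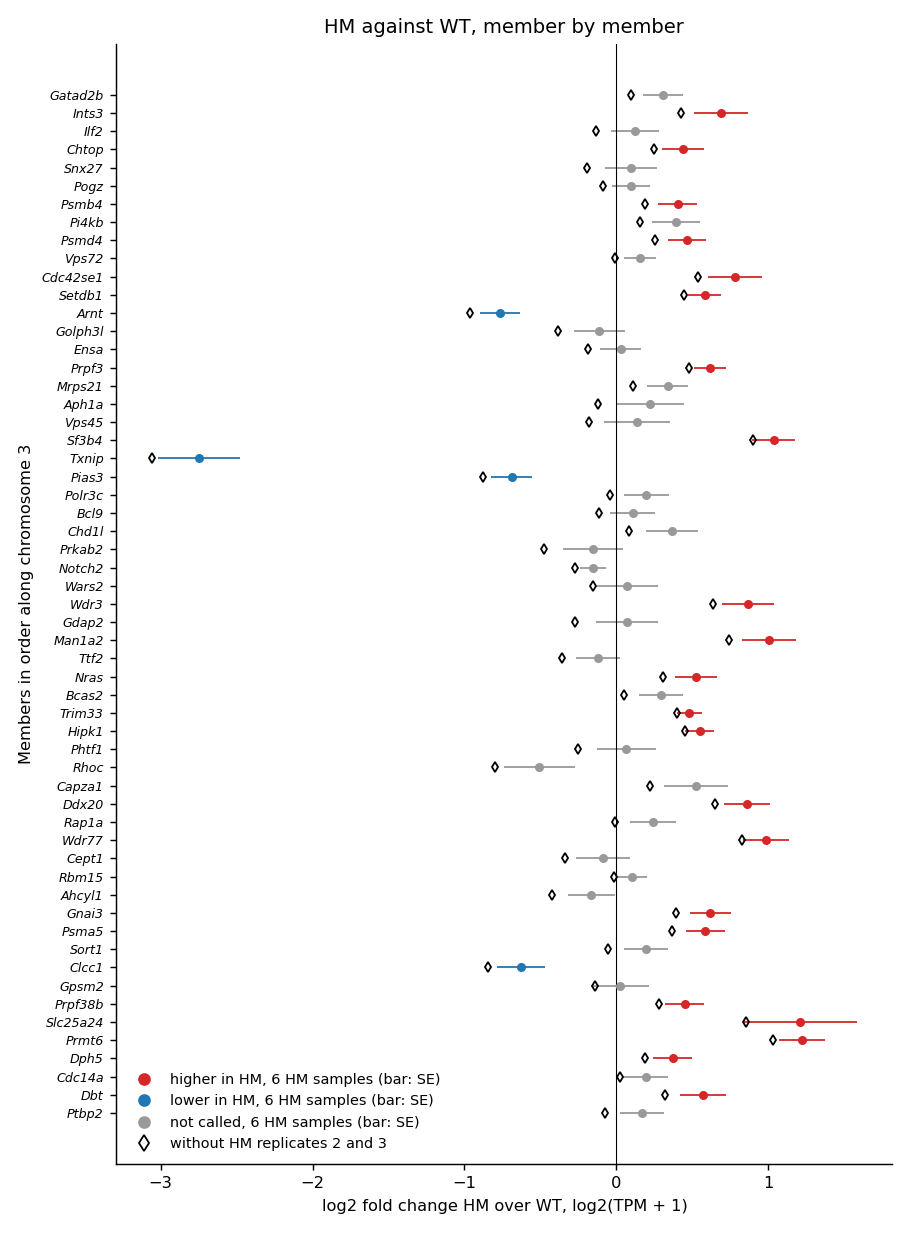
log2 fold change of HM over WT with its standard error (x axis) for the 57 members in chromosome order (y axis), coloured by the limma call, with open diamonds for the value without HM replicates 2 and 3. All diamonds lie left of their points, and Txnip, Arnt, Pias3 and Clcc1 are lower in HM.

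By role, all 3 proteasome members passed as higher in HM, with and without replicates 2 and 3. Psma5 had means of 241 ± 11.4 TPM in WT and 371 ± 92.9 TPM in HM (SD, n = 6), with 0.58 on the log2 scale. Psmb4 and Psmd4, both at the WT level in HetKO, had log2 fold changes of 0.40 and 0.47 in HM. In splicing and mRNA export 6 of 9 members were higher and 0 lower, and 5 and 0 without replicates 2 and 3. Transcription and chromatin had 4 of 15 higher and 2 lower, and 4 and 4 without them. Among GTPases, G proteins and kinases 4 of 11 were higher and 0 lower, and 4 and 3 without them, with Nras at 0.52, Gnai3 at 0.62 and Cdc42se1 at 0.78 on the log2 scale over all samples. Membrane traffic had 1 higher and 1 lower of 10, and 1 and 4 without these replicates. Mitochondria and metabolism had 3 higher and 1 lower of 7, and 1 and 2 without them. In the last group of 2, Wdr3 was higher, and 1 was higher and 1 lower without them. Of all genes tested, 19.4% were higher and 32.0% lower with all HM samples, and 19.4% and 33.6% without these replicates. With means of alike pairs, none of Psma5, Psmb4, Psmd4, Nras, Gnai3 and Cdc42se1 was called, and Psmb4 was not called after quantile normalization.

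Some members passed in only 1 of these views. Snx27 and Phtf1 were not called with all HM samples (log2 fold changes of 0.10 and 0.07) and were lower without replicates 2 and 3 (-0.20 and -0.26). Rhoc and Notch2 likewise passed as lower only then, at -0.80 and -0.27. Of the 14 members lower in that fit, only 4 were also lower with all samples. Ahcyl1, Ttf2 and Gdap2 were among the rest, at -0.425, -0.36 and -0.27. For Ptbp2, Rap1a and Vps72 the value without these replicates was close to 0, at -0.07, -0.01 and -0.01.

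The proteins of several members work in complexes whose other subunits are encoded elsewhere, and the choice of members did not use those genes. Of 133 such partner genes tested in HetKO against WT, 3 were higher (3.71% of all 13999 genes were) and 2 lower (6.44%) by limma with adjusted p under 0.05, and 128 did not pass. Their median difference was 0.06, while the 19 subunits encoded within the interval had a median of 0.73. Since the interval was picked for this difference, a gap between these medians was built in and was not tested. Psmb3, a core proteasome subunit on chromosome 11, was at 539.8, 514, 517, 559.7, 543 and 508 TPM in WT and at 691, 735, 681, 673, 752 and 681 TPM in HetKO. All HetKO samples exceeded WT, a limma log2 fold change of 0.40 (SE 0.04, adjusted p = 6.33e-05). Psmd2, of the proteasome base, and Dld, which serves several ketoacid dehydrogenases, were higher by 0.15 and 0.25 on the log2 scale (adjusted p = 0.0276 and 0.0213 from limma). Prkaa2 and Prkag2, subunits of the energy sensor AMPK, were lower, with log2 fold changes of -0.70 and -0.33 (adjusted p = 0.00731 and 0.0217 from limma). The balance of directions moved with the scaling, with 6 higher and 2 lower when samples were centred on their median and 3 higher and 5 lower after quantile normalization. With means of alike pairs as replicates limma called 0 of the 133 at the adjusted threshold and 4 at an unadjusted p under 0.05, against 35 with all samples. The share of all genes at the unadjusted threshold is not given here, so nothing is read from these unadjusted counts about the partners. Without HetKO replicates 2 and 5, 1 was higher and 2 lower, and without WT replicate 2, 2 were higher and 1 lower.

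Complex by complex, members beyond the boundary had larger HetKO differences than the medians of their partners. The interval was picked for this difference and the boundary was set after the values were seen. The contrast therefore follows in part from that choice, and it is a description that was not tested. The SF3b partners of Sf3b4 had a median HetKO minus WT difference of -0.10 (0 of 7 called), against 0.79 for Sf3b4 itself. The tri-snRNP partners of Prpf3 had 0.10 (0 of 10), the PRP19 complex partners of Bcas2 0.18 (0 of 7), the SMN complex partners of Ddx20 0.15 (0 of 8) and the methylosome partners of Wdr77 0.19 (0 of 4). The 29 proteasome partners had a median of 0.11, with Psmb3 and Psmd2 called. For complexes whose member lies before the boundary, both sides were near 0. The NuRD partners of Gatad2b had a median of 0.01 (0 of 12), the Integrator partners of Ints3 0.07 (0 of 13) and the TREX partners of Chtop -0.06 (0 of 9). Further lists were RNA polymerase III (median 0.02, 0 of 9), gamma-secretase (-0.04, 0 of 6), SRCAP (0.00, 0 of 8), capping protein (0.19, 0 of 2), branched-chain ketoacid dehydrogenase (0.14, 1 of 3 higher) and AMPK (-0.08, 2 of 5 lower).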

How the data were processed

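Poly(A) mRNA-seq of P19 cells was analysed, with 6 samples per genotype grouped by their labels. The deposited TPM values came from RSEM after read pairs were joined with BBMerge by the authors, and the submitters' processing notes also list cutadapt, STAR and mm10. TPM keeps no sequencing depth, so the depth is unknown and precision was taken from the spread between samples. RSEM divides reads shared by similar genes by estimate, and its effect on members was not tested. All 55450 identifiers matched GENCODE M21 (GRCm38), which gave positions.

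In each comparison, genes whose mean over its 12 samples reached 1 TPM were fitted by limma (version 3.58.1, R 4.3.3) on the log2(TPM + 1) scale, with a variance trend, Benjamini-Hochberg adjustment and a threshold of 0.05. The pseudocount makes fold changes of low genes too small. The step was tested on simulated data with independent samples. These did not hold the alike pairs, so the test does not show how calls behave with them. Summaries and figures were made in Python 3.11.15 (numpy 2.4.6, pandas 2.3.3).

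The members, role groups, partner lists and tests were chosen with earlier results of these data known. Named genes were the first and last 3 members, the 6 largest and 6 smallest HetKO differences, the 8 smallest adjusted p in HM, the highest WT level of each role, a fixed list of 13, the 3 coding genes nearest each side of the interval's limits and partner genes past the threshold. Some genes that the rule or the partner lists name are not reported here. Alternatives were a pseudocount of 0.1, other filters, centring, quantile normalization, a joint fit, a replicate block and samples left out. Pair means were an alternative chosen after seeing the data. Small RNA, AGO2 immunoprecipitation and CLASH data were not used here.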

Additional observations from a re-analysis of the deposited data

How the results depend on the processing

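The median difference of the members in HetKO was 0.59 and stayed between 0.54 and 0.65 under every alternative run. In HM it was 0.24, fell to 0.02 without HM replicates 2 and 3, and was 0.14 to 0.34 with single samples left out. Centring samples on their median raised the median of all genes in HM from -0.09 to 0.08 and that of the members to 0.42, so the distance between them stayed at 0.34. The share of calls higher in HM was 37.7% of all genes as deposited, 61.0% when centred and 51.1% when quantile normalized, and in HetKO 36.5%, 50.7% and 48.1%. Of 26 members called in HM, 25 were called in each of the 12 fits with a sample left out. Dph5 was not called without HM replicates 2 or 3 or WT replicates 2, 3 or 6. Centring raised the members called in HM to 35 higher and 4 lower, and quantile normalization gave 25 and 4. Members called ranged from 25 to 32 over the fits with a sample left out, genes called from 6541 to 7361 of 7220 with all samples, HetKO genes from 959 to 1518 of 1421, and partner genes from 3 to 6 of 5. With means of alike pairs, 3414 genes and 13 members were called in HM, 35 genes in HetKO and 0 partner genes, in a fit with fewer samples. Partner genes called were 8 when centred (6 higher) or quantile normalized (3 higher) and 3 without HetKO replicates 2 and 5 (1 higher). Snx27, Phtf1 and Gdap2 reversed to -0.20, -0.26 and -0.27 without HM replicates 2 and 3. Why these values moved was not tested beyond the construction of each alternative. Deviations of samples with equal replicate numbers had low correlations, at -0.07 to 0.11 in HM and WT and 0.02 to 0.12 in HetKO and WT. All were above 0 in HetKO and WT, and whether equal numbers pair the samples was not tested further. With the replicate number as a block, 25 members and 6889 genes were called in HM, 1206 genes in HetKO and 5 partner genes, and among named members only the call of Dph5 was lost. Each number correlated best with its own in 1 of 6 and 3 of 6 cases.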
